A study of Homo sapiens with 13 samples.

Results

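Constructs that carry a single copy of a transcription factor motif were set against constructs without a motif, named rd, in MEC1 cells. The motifs belonged to NFKB, IRF, PU1, RUNX3, FOXO, MEF2, MYC and CTCF, each placed in 3 flanking sequence contexts, and every construct was compared with the rd construct of its own context. The constructs were taken from the tables by their name for motif order, which had to hold exactly 1 motif name or rd. This gave 24 single motif constructs and 3 rd constructs in each library. Of 442 named constructs and 210844 barcodes kept in the episomal 10 bp library, the single motif constructs held 14467 barcodes and rd 2428. In the episomal 5 bp library they held 11835 and rd 1712 of 236860 barcodes in 542 constructs. In the integrated library, made from the 5 bp pool, they held 809 and rd 123 of 16189 barcodes in 530 constructs. The tables list rd with the same motif number as the single motif arrays. Because its name holds none of the 8 motif names, it was taken as the construct without a motif.

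The assay, STARR-seq, places a test sequence within the transcript of its own reporter, so that the abundance of the transcript relative to the DNA template measures enhancer activity. Transcription factors bind short motifs, and the response to a motif depends on which members of the factor family a cell holds and on the sequence around it. NFKB and IRF factors drive immune and inflammatory genes, PU1 and RUNX3 act in blood cell development, FOXO factors are restrained by growth factor signalling, MEF2 factors act in muscle, neurons and B cells, MYC binds E-box motifs of growth genes, and CTCF organises chromatin loops and acts as an insulator. The labels name factor families and not the protein that binds, and the motif and flanking sequences are not among the data used here.

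MEC1, labelled wild type, is an established line of malignant B lymphocytes from chronic lymphocytic leukaemia. The 13 samples comprised, for each episomal library, duplicate transfections read as mRNA after 24 h beside 1 plasmid DNA library. They also comprised 3 mRNA and 3 genomic DNA samples and 1 plasmid DNA sample of the integrated library. For integration, MEC1 cells with an inducible CRE recombinase and a landing pad (loxP-CMV-GFP-lox2272) exchanged the pad for the library, and cells that had lost GFP were sorted and grown on before RNA and DNA were extracted together. A single motif has no neighbouring motif, so the spacer of 5 bp or 10 bp is not part of the comparison with rd. The 2 episomal libraries were separate plasmid pools and transfections, and whether constructs of the same name had the same bases in both was not given. Per sample the episomal libraries held 3850658 to 4563359 reads, of which 16.6% to 18.5% lay on barcodes with no construct name. Each episomal table lists only barcodes with at least 1 read in every library of that table, so a barcode without mRNA is missing and weak constructs are measured as stronger than they were.

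The level of a construct is the log2 ratio of its share of the mRNA reads to its share of the plasmid DNA reads, over all kept barcodes of the library. In the 10 bp library the rd constructs had levels, in mRNA replicates 1 and 2, of -0.62 and -0.74 in context 1, -0.27 and -0.35 in context 2, and -0.82 and -0.93 in context 3. The 5 bp library gave -1.27 and -1.23 in context 1, -1.06 and -1.17 in context 2, and -1.58 and -1.51 in context 3. Context 2 held the highest and context 3 the lowest rd construct in both libraries, and in each library the contexts did not overlap. With only 1 rd construct per context, the 8 motif differences of a context share their comparator, and whatever sets that rd construct apart enters all 8 with the same sign.

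Each of the 8 single motifs differed from rd in both episomal libraries. In the mean over contexts, 5 motifs lay above and 3 below rd in the 10 bp library, and 7 above and 1 below it in the 5 bp library (edgeR quasi-likelihood test, adjusted p under 0.05). The episomal SEs and p-values rest on 2 mRNA replicates of the same barcodes beside 1 plasmid DNA sample. They leave out the error of sampling a limited number of barcodes and that of the rd reads, which entered as fixed. Among all 145 designs fitted, mostly arrays of several motifs, 51.7% lay above rd and 42.8% below it in the 10 bp library, and 71% above and 22.8% below it in the 5 bp library. The members' counts lay near these shares. The median difference from rd was 0.14 for the single motifs and 0.14 for all designs in the 10 bp library, and 0.30 and 0.56 in the 5 bp library. Counted per construct, the 10 bp library had 9 of 24 higher and 10 lower, where 45.1% of all designs were higher and 44.8% lower. The 5 bp library had 17 of 24 higher and 3 lower, where 66.4% of all designs were higher and 24.4% lower. These directions hold against rd. Scaled by TMM over all designs, which sets a construct against the typical array in place of rd and moved the median of all designs by -0.14 in the 10 bp and -0.83 in the 5 bp library, the 10 bp library had 9 higher and 11 lower constructs and 3 higher and 3 lower motif means. The 5 bp library then had 2 higher and 18 lower constructs, and of its motif means NFKB alone stayed higher and the other 7 were lower.

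CTCF was the lowest of the 9 kinds of construct in every context of both libraries. Its levels in the 10 bp library were -2.79 and -2.94 in context 1, -2.76 and -2.74 in context 2, and -2.73 and -2.73 in context 3, and in the 5 bp library -2.99 and -2.91 in context 1, -2.68 and -2.69 in context 2, and -2.95 and -2.86 in context 3. All 12 values lay below every rd value. The mean difference from rd was -2.16 (SE 0.05, adjusted p = 1.29e-18) in the 10 bp library, 4.47-fold lower, and -1.54 (SE 0.06, adjusted p = 3.88e-16) in the 5 bp library, 2.91-fold lower (edgeR). By context it lay between -2.44 and -1.86 in the 10 bp library and between -1.70 and -1.35 in the 5 bp library, so that each of the 6 constructs was lower than its rd. This call and direction also held with TMM scaling in both libraries. CTCF was also the motif whose difference from rd varied least with context in the 10 bp library, with a range of 0.58 against 1.14 to 2.51 for the other motifs. Its mean level there lay between -2.87 and -2.73, while rd changed by -0.56 from context 2 to context 3. Of its barcodes 32.4% to 39.2% had 1 mRNA read, the lowest count listed, so this range may not measure how far CTCF depends on context.

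NFKB and IRF, the motifs of immune and inflammatory transcription, gave the largest increases over rd. NFKB levels in the 10 bp library were 0.51 and 0.40 in context 1, -0.73 and -0.84 in context 2, and 1.20 and 1.12 in context 3, and in the 5 bp library -0.58 and -0.59 in context 1, -0.02 and 0.0036 in context 2, and -0.60 and -0.52 in context 3. The 10 bp values lay above rd in contexts 1 and 3, without overlap, and below it in context 2. The 5 bp values lay above rd in all 3 contexts. The mean difference was 0.90 (SE 0.05, adjusted p = 1.83e-13) and 0.92 (SE 0.05, adjusted p = 1.53e-13) in the 10 bp and 5 bp libraries, which are 1.86-fold and 1.90-fold. In context 3 of the 10 bp library NFKB was 4.10-fold higher than rd, at 2.04 (SE 0.09, adjusted p = 6.22e-14), and in context 2 of that library it was lower, at -0.47 (SE 0.08, adjusted p = 9.40e-06). With TMM scaling NFKB in that context lost its call (-0.01, adjusted p = 0.807), and in the 5 bp library it was -0.11 and -0.02 in contexts 1 and 3, neither past the test.

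IRF levels were 0.43 and 0.32 in context 1, -0.31 and -0.36 in context 2, and 1.17 and 1.16 in context 3 in the 10 bp library. They were -0.57 and -0.53 in context 1, -0.24 and -0.19 in context 2, and -1.48 and -1.34 in context 3 in the 5 bp library. IRF thus lay above rd in context 1 of both libraries, in context 3 of the 10 bp library by a wide margin and in context 2 of the 5 bp library. The mean difference was 1.02 (SE 0.05, adjusted p = 5.45e-14) in the 10 bp library, 2.03-fold, and 0.58 (SE 0.05, adjusted p = 6.26e-10) in the 5 bp library, 1.5-fold. The fold was 4.11 in context 3 of the 10 bp library. Context 2 of the 10 bp library (-0.03 (SE 0.08, adjusted p = 0.734)) and context 3 of the 5 bp library (0.14 (SE 0.09, adjusted p = 0.118)) did not pass the test. The second of these passed when barcodes needed 20 plasmid reads (0.26, adjusted p = 0.0303) and with each barcode counted once (0.17, adjusted p = 0.0114), and TMM scaling turned it to -0.87. With TMM scaling IRF was higher in context 2 of the 10 bp library (0.43) and lower in the 5 bp mean (-0.25).

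PU1, an ETS factor of B cells and myeloid cells, was higher than rd in 5 of its 6 constructs. Its levels were 0.15 and 0.06 in context 1, -1.15 and -1.26 in context 2, and -0.07 and -0.04 in context 3 in the 10 bp library and -0.58 and -0.59 in context 1, -0.77 and -0.97 in context 2, and -0.92 and -0.93 in context 3 in the 5 bp library. The exception was context 2 of the 10 bp library, where PU1 lay below rd in both replicates. The mean difference was 0.24 (SE 0.05, adjusted p = 9.20e-05) in the 10 bp library and 0.51 (SE 0.05, adjusted p = 3.94e-09) in the 5 bp library, which TMM scaling turned to -0.32. By context it was 0.79, -0.89 and 0.82 in contexts 1 to 3 of the 10 bp library and 0.66, 0.24 and 0.62 in those of the 5 bp library, and all 6 passed the test. With TMM scaling the increase in context 3 of the 10 bp library lost its call (0.09, adjusted p = 0.224). The increase in context 2 of the 5 bp library lost its call (0.06, adjusted p = 0.6) when barcodes needed 20 plasmid reads and without mRNA replicate 1 (0.20, adjusted p = 0.0902).

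RUNX3, the motif of a factor of lymphocyte development, had levels of -0.21 and -0.30 in context 1, -1.01 and -1.10 in context 2, and -0.96 and -0.96 in context 3 in the 10 bp library. In the 5 bp library they were -0.93 and -0.87 in context 1, -0.67 and -0.55 in context 2, and -1.69 and -1.73 in context 3. Its direction against rd differed by context and library. It was higher in context 1 of both libraries, at 0.43 (SE 0.09, adjusted p = 2.12e-04) in the 10 bp and 0.35 (SE 0.09, adjusted p = 0.0015) in the 5 bp library. In context 2 it was lower in the 10 bp library, at -0.75 (SE 0.09, adjusted p = 1.45e-07), and higher in the 5 bp library, at 0.51 (SE 0.09, adjusted p = 4.43e-05). In context 3 neither -0.08 (adjusted p = 0.373) in the 10 bp nor -0.16 (adjusted p = 0.105) in the 5 bp library passed. On the 3 rd constructs summed both were lower, at -0.36 (adjusted p = 1.65e-04) and -0.42 (adjusted p = 5.59e-05), and so they were with TMM scaling (-0.81 and -1.18). The 5 bp value also passed when barcodes needed 20 plasmid reads (-0.36, adjusted p = 0.00243). The mean was -0.13 (SE 0.05, adjusted p = 0.0194) in the 10 bp library, where leaving out mRNA replicate 1 ended the call (-0.11, adjusted p = 0.0534), and 0.23 (SE 0.05, adjusted p = 4.13e-04) in the 5 bp library, which TMM scaling turned to -0.60.

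FOXO, MEF2 and MYC gave the smallest differences from rd in the 5 bp library, together with RUNX3. FOXO levels were -0.82 and -0.85 in context 1, -0.83 and -0.93 in context 2, and 0.32 and 0.23 in context 3 in the 10 bp library. They were -0.92 and -0.89 in context 1, -0.66 and -0.59 in context 2, and -1.32 and -1.38 in context 3 in the 5 bp library. Among the 10 bp constructs FOXO stood above rd in context 3 alone, at 1.15 (SE 0.09, adjusted p = 2.34e-10), and below it in context 2, at -0.57 (SE 0.09, adjusted p = 3.05e-06), where TMM scaling ended the call (-0.11, adjusted p = 0.0896). Context 1 of that library did not pass, at -0.15 (SE 0.09, adjusted p = 0.105). It passed as lower with TMM scaling (-0.31), on the 3 rd constructs summed (-0.24), with each barcode counted once (-0.19) and without mRNA replicate 2 of that library (-0.20), with adjusted p from 8.31e-05 to 0.0453. With the 5 bp library FOXO was higher in all 3 contexts (0.35, 0.49 and 0.20), of which context 3 lost its call without mRNA replicate 1 (0.14, adjusted p = 0.255). The mean difference was 0.14 (SE 0.05, adjusted p = 0.0118) in the 10 bp library and 0.35 (SE 0.05, adjusted p = 2.21e-06) in the 5 bp library, which TMM scaling turned to -0.48.

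MEF2 followed the same pattern as FOXO in the 10 bp library. Its levels there were -0.68 and -0.79 in context 1, -0.93 and -0.97 in context 2, and 0.28 and 0.25 in context 3, and in the 5 bp library -0.77 and -0.75 in context 1, -0.81 and -0.87 in context 2, and -1.69 and -1.56 in context 3. The 10 bp construct was higher in context 3, at 1.14 (SE 0.08, adjusted p = 3.29e-11), lower in context 2, at -0.64 (SE 0.08, adjusted p = 1.28e-07), and -0.05 in context 1 (adjusted p = 0.502). The 5 bp constructs were higher in contexts 1 and 2 (0.49 and 0.28) and -0.07 in context 3 (adjusted p = 0.357). The mean difference was 0.15 (SE 0.04, adjusted p = 0.00422) in the 10 bp library and 0.23 (SE 0.04, adjusted p = 6.92e-05) in the 5 bp library. TMM scaling ended the call of the 10 bp mean (0.0038, adjusted p = 0.915) and turned the 5 bp mean to -0.60. It also put MEF2 past the test as lower in context 1 of the 10 bp library (-0.22, adjusted p = 0.00182) and context 3 of the 5 bp library (-1.09, adjusted p = 7.38e-12). That context passed as lower on the 3 rd constructs summed too (-0.33, adjusted p = 4.81e-04).

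MYC was the only motif besides CTCF without an increase in any context of the 10 bp library. Its levels were -0.52 and -0.68 in context 1, -1.32 and -1.41 in context 2, and -1.04 and -1.08 in context 3 there and -0.78 and -0.83 in context 1, -1.08 and -1.16 in context 2, and -1.24 and -1.23 in context 3 in the 5 bp library. Among the 10 bp constructs MYC was lower than rd in context 2, at -1.06 (SE 0.07, adjusted p = 4.26e-11), and in context 3, at -0.19 (SE 0.08, adjusted p = 0.024), with 0.08 in context 1 (adjusted p = 0.297). The call in context 3 was lost without mRNA replicate 1 of the 10 bp library (-0.15, adjusted p = 0.0965), without either mRNA replicate of the 5 bp library (-0.19, adjusted p = 0.0578 and 0.0579) and when barcodes needed 20 plasmid reads (-0.21, adjusted p = 0.0572). Of the 5 bp constructs MYC was higher in contexts 1 and 3 (0.44 and 0.31) and -0.0034 in context 2 (adjusted p = 0.966). On the 3 rd constructs summed its call in context 3 was lost (0.06, adjusted p = 0.455), and with TMM scaling context 2 was lower (-0.70, adjusted p = 2.57e-08). The mean difference was -0.39 (SE 0.04, adjusted p = 4.31e-08) in the 10 bp library and 0.25 (SE 0.04, adjusted p = 2.42e-05) in the 5 bp library, which TMM scaling turned to -0.58.

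The order of the levels was stable at its lower end and variable above it. NFKB or IRF had the highest level in 5 of the 6 sets of constructs and CTCF the lowest in all 6. In context 2 of the 10 bp library rd itself had the highest level of the 9 constructs, so that all 8 motif differences there were negative, 7 of them past the test. In the other 5 sets, 5 to 7 of the 8 motifs lay above rd. Between the contexts of the 10 bp library rd and the mean of the single motifs moved in opposite directions in all 3 pairs. From context 1 to context 2 of the 10 bp library the level of rd changed by 0.37 while the single motif levels changed by -0.62 on average, and from context 2 to context 3 rd changed by -0.56 while the single motif levels changed by 0.92 on average, with all 8 motifs higher in context 3. From context 1 to context 3 rd changed by -0.19 and the single motif levels by 0.30 on average, with 5 motifs higher. In the 5 bp library rd and the mean of the single motifs changed in the same direction, by 0.13 and 0.13 between contexts 1 and 2, by -0.30 and -0.46 between contexts 1 and 3 and by -0.43 and -0.59 between contexts 2 and 3. Against rd, the median of all 145 designs was 0.08, -0.51 and 0.59 in contexts 1 to 3 of the 10 bp library. It was 0.71, 0.46 and 0.68 in those of the 5 bp library. These medians contain the change of rd itself. Between contexts 1 and 2 of the 5 bp library the median change against rd was -0.20 for all designs and 0.14 for single motifs. It was 0.15 and -0.14 between contexts 1 and 3, and 0.32 and -0.21 between contexts 2 and 3. Whether the rd construct or the flanking sequence sets the value of context 2 cannot be told apart with 1 rd construct per context.

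The difference from rd changed with the context for most motifs. Between pairs of contexts, 22 of 24 differences passed the test in the 10 bp library, against 74% of those of all designs, and 13 of 24 in the 5 bp library, against 46.7%. NFKB spanned 2.51 log2 units between its lowest and highest context in the 10 bp library and 0.44 in the 5 bp library. IRF spanned 2.07 and 0.76 in the same 2 libraries. FOXO, MEF2 and PU1 spanned 1.72, 1.78 and 1.71 in the 10 bp library, against 0.29, 0.56 and 0.42 in the 5 bp library. All 8 motifs had a wider span against rd in the 10 bp library. These spans contain the change of rd between contexts. The level of RUNX3 itself lay between -1.06 and -0.25 in the 10 bp library and between -1.71 and -0.61 in the 5 bp library. That of CTCF lay between -2.87 and -2.73 and between -2.95 and -2.68. By level both thus spanned less in the 10 bp library, while the other motifs spanned more there.

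The same motifs in the 10 bp and the 5 bp library did not give the same differences from rd. In the mean over contexts the 10 bp library had the higher difference for IRF, by 0.44 (SE 0.07, adjusted p = 4.85e-06), and the lower one for CTCF, FOXO, MYC, PU1 and RUNX3. That is 1 higher and 5 lower of 8, where 14.5% of all designs were higher and 75.9% lower. For CTCF the mean level itself was close in both, at -2.78 in the 10 bp and -2.85 in the 5 bp library, while rd had higher levels in the 10 bp library. MEF2 (-0.08 (SE 0.06, adjusted p = 0.21)) and NFKB (-0.02 (SE 0.06, adjusted p = 0.743)) did not pass. With TMM scaling, which moved the median of all designs by 0.69 in this comparison, 6 motifs were higher in the 10 bp library and 0 lower, so that the direction depends on whether rd or the typical array is the comparator. At an unadjusted p under 0.05 edgeR with TMM scaling likewise gave 0 lower.

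By context the libraries differed in opposite directions. In context 2 all 8 motifs had a lower difference from rd in the 10 bp library, between -1.59 for NFKB and -0.87 for CTCF, where 82.8% of all designs were lower. In context 3 FOXO (0.94), IRF (1.89), MEF2 (1.21) and NFKB (1.05) had a higher one, where 22.8% of all designs were higher. CTCF (-0.50) and MYC (-0.50) had a lower one there, where 57.2% of all designs were lower. In context 1 IRF (0.36) and NFKB (0.47) were higher, against 13.8% of all designs, and CTCF, FOXO, MEF2 and MYC were lower, by -0.36 to -0.54, against 66.9%. PU1 and RUNX3 passed in context 2 only.

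The barcodes of a construct show how these sums arise. Each barcode is a separate plasmid clone of the same construct, so barcodes are not replicates of a condition and were not tested. In context 3 of the 10 bp library the median barcode of NFKB stood at 1.13 (95% interval 1.06 to 1.23) in mRNA replicate 1, with quartiles of 0.46 and 1.65 over 760 barcodes. The rd barcodes of that context had a median of -0.97 (-1.09 to -0.87), with quartiles of -1.87 and -0.33 over 808 barcodes. The lower quartile of NFKB thus lay above the upper quartile of rd. Of the NFKB barcodes 86.8% lay above the upper quartile of rd, and of the IRF barcodes 86.9%, as means of both replicates, where rd itself gives 24.9%. MEF2 had 71.5% and FOXO 67.1% there. Within the 5 bp library the highest share was that of NFKB in context 2, with 65.9%.

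In context 2 of the 10 bp library the median and both quartiles of the barcodes lay lower than those of rd for 7 motifs. The distributions overlapped. Of the NFKB barcodes 35.7% lay above the rd median and 14.8% above the upper quartile of rd, as means of both replicates. The median barcode of MYC stood at -1.45 (-1.57 to -1.38) in mRNA replicate 1. As the mean of both replicates, 4.06% of its barcodes lay above the upper quartile of rd. The rd median was -0.45 (-0.53 to -0.37) over 889 barcodes. IRF was the exception, with a median of -0.48 (-0.60 to -0.35) in replicate 1 and 25.8% of barcodes above that quartile as the mean of both replicates. The top 1% of the rd barcodes held 7.39% of the rd mRNA reads in replicate 1 in context 2, against 5.86% in context 1 and 7.65% in context 3.

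CTCF constructs were represented by fewer barcodes, with 157 to 233 in the 10 bp library and 114 to 162 in the 5 bp library. The other single motif constructs had 339 to 909 and 341 to 755, and rd 731 to 889 and 541 to 618, in the same 2 libraries. Their listed barcodes also had more plasmid reads, with medians of 17.0 to 21.0 in the 10 bp and 13.5 to 14.0 in the 5 bp library, against 10.0 to 11.0 and 9.0 to 11.0 for rd. Many of them stood at the lowest mRNA count a listed barcode can have. On average over the replicates, 32.4% to 39.2% of CTCF barcodes in the 10 bp and 44.4% to 46.5% in the 5 bp library had 1 mRNA read. The share was 1.45% to 15.1% and 5.23% to 25.5% for the other motifs and 6.24% to 11.8% and 16.3% to 22.4% for rd. Among barcodes with at least 20 plasmid reads it was still 16.0% to 28.4% and 19.3% to 32.9% for CTCF, against 0.287% to 2.16% and 0.610% to 5.34% for rd. Only 1.72% to 2.23% of CTCF barcodes in the 10 bp library and 2.78% to 4.39% in the 5 bp library lay above the upper quartile of rd.

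The mRNA reads of CTCF in context 2 of the 10 bp library were the most concentrated of the single motif and rd constructs of that library, since the top 1% of its 157 barcodes held 21.6% and 25.3% of them in replicates 1 and 2. For the other motifs the top 1% held 4.81% to 11.3% of the reads of a 10 bp construct and 4.38% to 9.04% of those of a 5 bp construct in replicate 1. The median CTCF barcode lay 1.78 to 2.60 log2 units below the rd median in the 10 bp library and 1.18 to 1.57 below it in the 5 bp library (differences of -1.78 to -2.60 and -1.18 to -1.57). Single barcodes repeated only in part between the mRNA replicates, with a correlation per construct of 0.326 to 0.762 in the 10 bp and 0.281 to 0.553 in the 5 bp library across single motif barcodes, which share 1 plasmid DNA library. The highest was that of NFKB in context 3 of the 10 bp library.

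The table of the integrated library lists barcodes by their genomic DNA and so keeps those without mRNA. Of its single motif and rd barcodes, 618 of 932 were also listed in the episomal 5 bp table, and 557 of the 562 named in both carried the same construct name. For CTCF 33.0% of integrated barcodes (33 of 100, Clopper-Pearson 95% interval 23.9% to 43.1%) were listed in the episomal table. The share was 65.8% to 75.9% for the other 7 motifs and 61.8% (52.6% to 70.4%) for rd. CTCF barcodes were thus missing from the episomal table more often than those of rd, with intervals that do not overlap. Intervals cover counting error only.

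In the integrated library a barcode without mRNA is a measurement, and the share of barcodes with any mRNA counts each barcode once. PU1 and IRF had the highest shares, followed by NFKB and FOXO, and CTCF, MEF2, MYC and RUNX3 had shares near that of rd. Over the 3 contexts and with mRNA in any replicate the share was 66.7% (48 of 72, 54.6% to 77.3%) for PU1 and 59.5% (47 of 79, 47.9% to 70.4%) for IRF. It was 39.4% (39 of 99, 29.7% to 49.7%) for NFKB and 31.5% (35 of 111, 23.0% to 41.0%) for FOXO, against 19.5% (24 of 123, 12.9% to 27.6%) for rd. RUNX3 had 23.9% (26 of 109, 16.2% to 33.0%), CTCF 23.0% (23 of 100, 15.2% to 32.5%), MEF2 21.8% (26 of 119, 14.8% to 30.4%) and MYC 20.8% (25 of 120, 14.0% to 29.2%). Those 4 intervals and that of FOXO overlap that of rd, and those of PU1, IRF and NFKB do not. Of all 16189 barcodes 36.6% had mRNA.

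By mRNA replicate the share was 40.3%, 41.7% and 38.9% in replicates 1 to 3 for PU1, 36.7%, 41.8% and 32.9% for IRF, 19.2%, 24.2% and 13.1% for NFKB and 13.5%, 19.8% and 11.7% for FOXO, against 7.32%, 13.0% and 8.13% for rd. PU1 and IRF lay above rd in every replicate by a wide margin. Relative to rd of the same context and averaged over contexts, PU1 was higher by 31.8 percentage points (SE 2.03, adjusted p = 4.05e-07) and IRF by 27.9 percentage points (SE 2.06, adjusted p = 1.24e-06) (limma). NFKB was higher by 10.2 percentage points (SE 1.85, adjusted p = 7.96e-04) and FOXO by 6.70 percentage points (SE 1.43, adjusted p = 0.00223). In the other 4 motifs the difference lay between -0.113 and 0.776 percentage points with SEs of 1.45 to 2.12. That is 4 higher and 0 lower of 8, where 53.1% of the 160 designs fitted were higher and 3.75% lower. At an unadjusted p under 0.05 limma also gave 0 motif means lower. The labels do not tie the triplicates to separate cultures, and these p-values measure a spread between extractions that may be technical. They leave out the error of counting a limited number of barcodes, which the intervals above cover.

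Per construct, 10 of 24 had a higher share than rd and 0 a lower one, where 40.8% of all designs were higher and 3.73% lower. The 10 were the 3 constructs of IRF, the 3 of PU1, and FOXO and NFKB in contexts 2 and 3. IRF was higher by 30.2 (SE 3.59, adjusted p = 7.78e-05), 26.3 (SE 3.62, adjusted p = 4.08e-04) and 27.2 (SE 3.61, adjusted p = 2.20e-04) percentage points in contexts 1 to 3. PU1 was higher by 20.9 (SE 3.52, adjusted p = 8.07e-04), 32.9 (SE 3.55, adjusted p = 7.82e-05) and 41.6 (SE 3.54, adjusted p = 1.67e-05). These rest on 19 to 32 barcodes per IRF construct and 15 to 30 per PU1 construct. The SEs cover the spread between extractions of the same barcodes and leave out the error of counting so few. In context 3 and replicate 1 PU1 had 40.0% (6 of 15, 16.3% to 67.7%) and rd 4.35% (2 of 46, 0.531% to 14.8%). NFKB was higher by 16.8 in context 2 and 12.6 in context 3, and FOXO by 11.9 and 8.26. Each of these 4 calls depended on a replicate. In context 2 FOXO lost it without replicate 1 (10.1, adjusted p = 0.0762) and NFKB without replicate 2 (15.9, adjusted p = 0.0572). In context 3 FOXO lost it without any of the 3 (7.08 to 10.3, adjusted p = 0.0763 to 0.15) and NFKB without replicate 2 (11.8, adjusted p = 0.105). Scaled on the 3 rd constructs pooled, both lost the call in context 3, FOXO at 3.85 (adjusted p = 0.274) and NFKB at 8.16 (adjusted p = 0.0861), and FOXO also lost it there when mRNA needed at least 2 RPM (6.36, adjusted p = 0.0667). At an unadjusted p under 0.05 limma gave 0 constructs lower.

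The context gave fewer calls for this share. Of the differences between contexts 3 of 24 passed, FOXO and NFKB in context 2 against context 1 (11.9 and 15.7 percentage points, adjusted p = 0.0475 and 0.0445) and PU1 in context 3 against context 1 (20.7, adjusted p = 0.0299). Among all designs 10.8% passed.

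The amount of genomic DNA behind a barcode differed between motifs. The median barcode had 26.5 RPM of genomic DNA for PU1, 23.8 for NFKB, 23.2 for MEF2, 23.1 for IRF, 23.1 for FOXO, 22.3 for RUNX3, 21.0 for CTCF and 17.5 for MYC, against 19.7 for rd. PU1 was highest in both this amount and the share with mRNA. MEF2, whose share lay near that of rd, had about as much genomic DNA as IRF. Above the common median of 22.0 RPM, 71.1% of PU1, 78.0% of IRF and 50.9% of NFKB barcodes had mRNA, against 29.1% of rd barcodes. At or below it the shares were 59.3%, 39.5% and 25%, against 11.8%. PU1, IRF and NFKB had a higher share than rd on either side of that median, for NFKB at or below it with 11 of 44 barcodes against 8 of 68 for rd. FOXO had 30.0% above it and 33.3% at or below it, so that its excess over rd lay among the barcodes with less genomic DNA. A single cut does not equalise the amount of genomic DNA within each side. Whether that amount sets the shares was not tested.

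Barcodes with mRNA in all 3 replicates were few. IRF had 16, PU1 11, NFKB 6, FOXO 5 and MYC 5, against 4 for rd. MEF2 had 2, CTCF 1 and RUNX3 1. Among barcodes with mRNA the median ratio of mRNA to genomic DNA RPM was 1.04 for IRF, 0.800 for PU1 and 0.678 for MYC, against 0.671 for rd. It was 0.586 for FOXO, 0.581 for CTCF, 0.563 for NFKB, 0.460 for RUNX3 and 0.382 for MEF2. The highest ratio of a single barcode was 50.5 for MYC, 44.7 for FOXO and 5.11 for CTCF, against 29.8 for rd. The quartiles of the ratio were 0.206 and 0.602 for MEF2, with the lowest median, and 0.563 and 1.59 for IRF, with the highest.

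The summed mRNA RPM of a construct, which weights a barcode by its amount, gave another picture that rested on few barcodes. Its level is log2(summed mRNA RPM + 0.5) minus the same for genomic DNA. The rd constructs had levels of -0.87, -0.86 and -1.27 in replicates 1 to 3 in context 1, 0.53, 1.32 and 0.40 in context 2 and -3.59, -3.82 and -3.90 in context 3. A single barcode held 67.3%, 84.0% and 46.0% of the rd mRNA in the 3 contexts. Without it the mean rd levels were -2.57, -1.96 and -4.84. Without its own top barcode MYC had mean levels of -2.42, 0.68 and -3.82 in contexts 1 to 3, against 0.26, 2.31 and -0.65 with it. The motif levels given next include the top barcodes.

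In replicates 1 to 3 the MYC levels were 0.10, 0.45 and 0.22 in context 1, 2.21, 2.33 and 2.38 in context 2 and -0.99, -0.23 and -0.73 in context 3, above every rd value of the same context. IRF had levels of 0.02, -0.46 and -0.12 in context 1, 0.33, -0.24 and -0.12 in context 2 and -0.82, -0.64 and -1.79 in context 3, and PU1 of 0.26, -0.41 and 0.20 in context 1, -0.91, -0.12 and -0.54 in context 2 and -1.11, -1.20 and -1.03 in context 3. Both lay above rd in contexts 1 and 3 and below it in context 2. The MEF2 levels were -3.65, -3.13 and -10.68 in context 1, -1.92, -1.87 and -2.09 in context 2 and -3.24, -3.05 and -3.15 in context 3, and its lowest value came from a construct listed at 0 mRNA RPM, so that the pseudocount sets it. RUNX3 had levels of -2.67, -1.85 and -3.45 in context 1, -2.68, -2.70 and -3.51 in context 2 and -2.29, -1.74 and -2.43 in context 3. MEF2 and RUNX3 lay below rd in contexts 1 and 2 and above it in context 3.

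Against rd and averaged over contexts, MYC was higher by 1.98 (SE 0.20, adjusted p = 1.09e-06), IRF by 0.91 (SE 0.20, adjusted p = 0.00107) and PU1 by 0.80 (SE 0.19, adjusted p = 0.00229) on this scale. MEF2 was lower, at -2.30 (SE 0.74, adjusted p = 0.015), and RUNX3 at -1.25 (SE 0.22, adjusted p = 2.98e-04). For MEF2 replicates 1 to 3 gave -1.63, -1.56 and -3.71. The last includes the context 1 value that the pseudocount sets, so the size of the MEF2 mean depends on it. CTCF, FOXO and NFKB did not pass, at -0.43, -0.20 and -0.24 (adjusted p = 0.129, 0.452 and 0.469). Of 160 designs 33.1% were higher and 28.8% lower, so that 3 and 2 of 8 lay near the background. For MYC a single barcode held 83.3%, 69.2% and 89.1% of the mRNA in contexts 1 to 3, while its share of barcodes with mRNA did not differ from that of rd past the test. For IRF the top barcode held 15.5%, 31.8% and 15.2%, and for PU1 52.4%, 11.9% and 23.3%. Scaled on the 3 rd constructs summed, MYC alone stayed higher and 5 motifs were lower. The call for IRF was also lost without replicate 1 (0.80, adjusted p = 0.0551), and that for MEF2 without replicate 1 (-2.64, adjusted p = 0.0723) or 2 (-2.67, adjusted p = 0.056).

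By context the calls on this scale ran opposite to the level of rd. With 1 rd construct per context, rd and the flanking sequence cannot be told apart here. In context 3, where rd was lowest, 7 of 8 motifs were higher and 0 lower, and in context 2, where rd was highest, 1 was higher and 5 lower. Together 10 of 24 were higher and 8 lower, where 28.2% of all designs were higher and 31.4% lower. The median of all designs against rd was -0.27, -2.09 and 2.11 in contexts 1 to 3. Scaled on the 3 rd constructs summed, which moved that median by up to -3.12 in context 3, 2 constructs were higher and 9 lower, and scaled on the median of all designs 8 were higher and 5 lower. Of the 7 calls in context 3 none kept both its sign and its side of the threshold with the first scaling, and 1, that of MYC, did with the second, so no direction per context was taken from the summed RPM.

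Side by side, the episomal 5 bp and the integrated library share the plasmid design but not the readout. NFKB had the largest mean difference from rd in the episomal 5 bp library (0.92, log2 level), and IRF (0.58) and PU1 (0.51) followed. In the integrated library PU1 and IRF had the larger differences in the share of barcodes with mRNA (31.8 and 27.9 percentage points) and NFKB a smaller one (10.2). CTCF lay 2.91-fold below rd in the episomal library, and its integrated share differed from that of rd by -0.113 percentage points (SE 1.71). The rd constructs had mRNA in 5.07% to 14.0% of their barcodes on average per replicate, so a lower share could differ from rd by no more than that. The 2 readouts have different units, and the difference between them was not tested.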

How the data were processed

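Barcoded STARR-seq libraries of designed arrays were measured in MEC1 cells in 13 samples, grouped by library, spacer and material as the titles give them. For the episomal libraries the authors deposited unnormalised read counts of each barcode, per the file headers, and for the integrated library they deposited each barcode's RPM (reads relative to the summed reads of a library) for mRNA and genomic DNA beside plasmid counts. No listed integrated barcode had under 2 RPM in a genomic DNA sample. Counter, aligner and versions were not given in the sources used here, and 9 further columns of per-sample values were not used.

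Barcodes with a construct name and at least 5 plasmid DNA reads were kept, and their reads were summed per design and context. The 145 designs with at least 5 such barcodes in all 3 contexts of both libraries were fitted with edgeR 4.0.16 (quasi-likelihood test, R 4.3.3) over 18 columns, 1 per context and sequencing library. Each column was scaled by the reads of its rd construct, so that mRNA over plasmid DNA is relative to rd. With 1 plasmid DNA sample per library, it was taken to vary like the mRNA. The integrated values entered limma 3.58.1 as log2(summed RPM + 0.5) minus rd, with at least 3 barcodes per design and context, which understates folds of low constructs. The share of barcodes with mRNA above 0 was fitted with limma on percentages minus rd. In all these fits the 3 context columns of 1 sequencing library were treated as independent. The SE of a mean over contexts therefore measures the spread between replicates and not that between contexts. P-values were adjusted by Benjamini-Hochberg over all designs of a contrast, with a threshold of 0.05. The barcode level intervals of medians are order-statistic 95% intervals. Library differences within a context were added after the data were seen.

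Alternatives changed the scaling, the minimum of plasmid reads and of barcodes, the tool (DESeq2 1.42.0), the weight of single barcodes, the pseudocount and the replicates. The fits were tested on simulated data. The 2 mRNA replicates of a library differed by more than sampling noise (chi-square per degree of freedom 6.76 in the 10 bp and 6.41 in the 5 bp library). PCR reads carry no molecular identifiers, so counts overstate independent molecules. All 24 single motif constructs and the 3 rd constructs are described, with values per replicate for motifs whose mean over contexts passed, and the constructs given by barcode quartiles were chosen after their values were seen. The members and lists were chosen with earlier results of these data known.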

Additional observations from a re-analysis of the deposited data

Results flagged for a closer look

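Between the 10 bp and the 5 bp library 6 of the 8 motifs had a mean difference from rd that differed past the test of the difference itself (edgeR), 1 higher and 5 lower, where 14.5% of all designs were higher and 75.9% lower. For IRF it was 1.02 in the 10 bp library and 0.58 in the 5 bp library, a difference of 0.44. For CTCF it was -2.16 and -1.54, a difference of -0.62, and for MYC -0.39 and 0.25, a difference of -0.64. For RUNX3 it was -0.13 and 0.23, a difference of -0.37, for PU1 0.24 and 0.51, a difference of -0.27, and for FOXO 0.14 and 0.35, a difference of -0.21. Both mRNA replicates of the 10 bp library gave MYC and RUNX3 a negative mean and both of the 5 bp library a positive one. These differences contain the change of rd, whose levels were higher in the 10 bp library. The mean CTCF level was -2.78 in the 10 bp and -2.85 in the 5 bp library. More CTCF barcodes stood at 1 mRNA read in the 5 bp library (44.4% to 46.5%, against 32.4% to 39.2%), which may hold its level up there.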

How the results depend on the processing

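Leaving the comparator rd for the typical array (TMM scaling over all designs) turned 17 of 48 construct values, 7 of 16 motif means and 7 of 8 library differences, and answers another question. It gave 2 higher and 18 lower constructs and 1 higher and 7 lower motif means in the 5 bp library, 3 higher means in the 10 bp library, 6 higher and 0 lower motifs between the libraries, and 13 lower differences between contexts in the 5 bp library. Values turned by TMM were, for the library difference of all motifs but IRF, NFKB 0.66, MEF2 0.60, FOXO 0.48, PU1 0.41, RUNX3 0.32, CTCF 0.068 and MYC 0.048. For the 5 bp means they were FOXO -0.48, IRF -0.25, MEF2 -0.60, MYC -0.58, PU1 -0.32 and RUNX3 -0.60. In context 1 of the 5 bp library they were FOXO -0.43, RUNX3 -0.43, MYC -0.33, MEF2 -0.29, PU1 -0.12, NFKB -0.11 and IRF -0.078, in context 2 FOXO -0.20, MEF2 -0.42, PU1 -0.45 and RUNX3 -0.19, and in context 3 FOXO -0.81, IRF -0.87, MYC -0.70, NFKB -0.024 and PU1 -0.39. In the 10 bp library they were -0.00086 for the FOXO mean and 0.43 for IRF in context 2. Scaled on the 3 rd constructs summed, the 5 bp library gave 5 lower constructs, FOXO in its context 3 was -0.055, MYC in its context 2 was 0.17 and IRF in context 2 of the 10 bp library was 0.26. The same scaling of the integrated RPM gave 2 higher constructs, and 1 higher and 5 lower means. It turned NFKB (0.030) and PU1 (0.13) in context 2 and CTCF (-1.54), FOXO (-2.04), IRF (-0.43), NFKB (-0.93), PU1 (-0.46) and RUNX3 (-1.50) in context 3. Scaled on the median of all designs it gave 5 lower constructs and turned IRF (1.42), NFKB (0.80) and PU1 (0.90) in context 2 and CTCF (-0.43), FOXO (-0.92) and RUNX3 (-0.39) in context 3. At least 20 plasmid reads per barcode left 3 higher differences between contexts in the 5 bp library. At least 20 barcodes left 6 motifs measured in all contexts of the integrated library, of which 1 was higher by RPM and 2 by share. Leaving out 1 replicate at a time gave 0 to 4 higher and 7 to 9 lower differences between contexts in the 5 bp library, and for the integrated RPM 6 to 9 higher and 5 to 9 lower constructs and 2 to 3 higher and 1 to 3 lower means. For the other counts, leaving out 1 replicate moved no count past 1.5 times. Numbers did not pair the samples, with a correlation of -0.0645 between the episomal replicates of the 2 libraries and of 0.0076, 0.0968 and 0.0855 between integrated mRNA and genomic DNA of the same number. The replicate block changed no call of a motif mean or library difference, and added 2 calls per context, FOXO in context 1 of the 10 bp library (-0.17, adjusted p = 0.0255) and RUNX3 in context 3 of the 5 bp library (-0.19, adjusted p = 0.016). Counts of the episomal comparisons stayed within 1.5 times with DESeq2, with reads capped at the 99th percentile, with each barcode counted once and without a minimum of plasmid reads. Except where a sentence names fewer motifs measured, the cause of these changes was not tested. An integrated construct had 15 to 61 barcodes, which limits the precision of its share.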
